A study of Mus musculus with 12 samples.

Results

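Choroid plexus genes were followed here in the liver and brain of mice with and without METTL5. The set held 9 of the 55487 genes in the count table, namely Ttr, Kl, Folr1, Kcnj13, Aqp1, Clic6, Slc4a5, Sostdc1 and Otx2, taken by symbol from the gene identifiers. All 9 had lower estimates in knockout (KO) than in wild-type (WT) brain, where 50.2% of all genes tested did. The median log2 fold change of the 9 was -0.97, against -0.0016 over all 17188 genes tested. The genes had been selected on this contrast, with its values known, so their differences between KO and WT brain are a description and carry no test. In liver, which also makes Ttr, neither of the 2 members with enough counts differed detectably between genotypes.

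The choroid plexus is a folded sheet of epithelium over leaky capillaries in the ventricles of the brain. Its cells secrete cerebrospinal fluid by moving ions, bicarbonate and water from blood to ventricle, and tight junctions between them form the barrier between blood and fluid. They also release carrier proteins, of which transthyretin (Ttr), the carrier of thyroxine and retinol-binding protein, is the best known, and Ttr mRNA is so abundant in this epithelium that it marks the tissue in bulk RNA from brain. Hepatocytes make the transthyretin of blood plasma, so the known main source of Ttr mRNA is a different cell type in liver and in brain.

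Total RNA from liver and brain of 6 mice was sequenced in 12 libraries, 3 per group. WT mice were B, D and E, and KO mice were A, C and F, with liver and brain taken from the same animal. METTL5 places the m6A mark on 18S ribosomal RNA. The KO allele came from a floxed line in which Cre under the CMV promoter removed the second exon throughout the body, and the line was made in C57bl/6 x 129S6 embryonic stem cells and backcrossed to C57bl/6. The labels call the controls WT, whereas the study's text speaks of Mettl5+/- mice in the RNA-seq comparison, and which holds for these 3 mice was not settled here. No sex, age or batch was labelled. The study used both sexes and a range of ages and speaks of pairs of mice, without saying which mice were paired, how old each was or which shared a litter. One mouse of each genotype (E and F) had at most 20 Y-linked counts in either tissue, against at least 2112 in the others. A lower level in a whole tissue can come from fewer cells of a type or from less RNA per cell, and these cannot be told apart in bulk samples.

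Library totals ran from 14403309 to 21623180 counts. Mettl5, counted over all its exons, was lower in every KO than in every WT library. In liver it was 10.5 ± 3.87 CPM (counts scaled to library size) in WT and 3.85 ± 0.215 in KO, and in brain it was 6.66 ± 2.14 in WT and 3.70 ± 0.328 in KO (mean ± SD, n = 3). Mitochondrial ribosomal RNA took 21.4 to 31.6% of the counts of KO brain and 7.63 to 17.7% of WT brain. With both mitochondrial rRNA genes left out, the median log2 fold change of the 9 choroid plexus genes was again -0.97. Liver libraries carried the hepatocyte list (8 genes, Alb among them) at 63069 to 82022 summed CPM and brain libraries at 14.2 to 35.7. CPM values below were normalised within a tissue (TMM, trimmed mean of M values), and each log2 fold change came from a model of its own contrast, so it differs slightly from the ratio of the means.

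The carrier and the hormone-like protein are described first. Ttr (chromosome 18, 20665280 to 20674321, plus strand, mm10) was 245, 345 and 196 CPM in WT brain of mice B, D and E. It was 97.4, 161 and 142 CPM in KO brain of mice A, C and F. The highest KO library lay below the lowest WT library, and the group means were 262 ± 75.6 and 133 ± 32.5 CPM (SD, n = 3). The log2 fold change was -0.97 (SE 0.24), and it was -0.73 without mouse D, the WT mouse with the highest level. Kl encodes klotho, the FGF23 co-receptor whose ectodomain is shed into cerebrospinal fluid. Kl (chromosome 5, 150952607 to 150993817, plus strand) was 7.93, 19.3 and 10.7 CPM in WT brain and 5.20, 9.35 and 4.75 CPM in KO brain. The KO library of mouse C lay above the WT library of mouse B, so the groups overlapped. The log2 fold change of Kl was -0.98 (SE 0.37). It rested on single animals, at -0.54 without mouse D and -1.35 without mouse C.

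**Figure D1:**
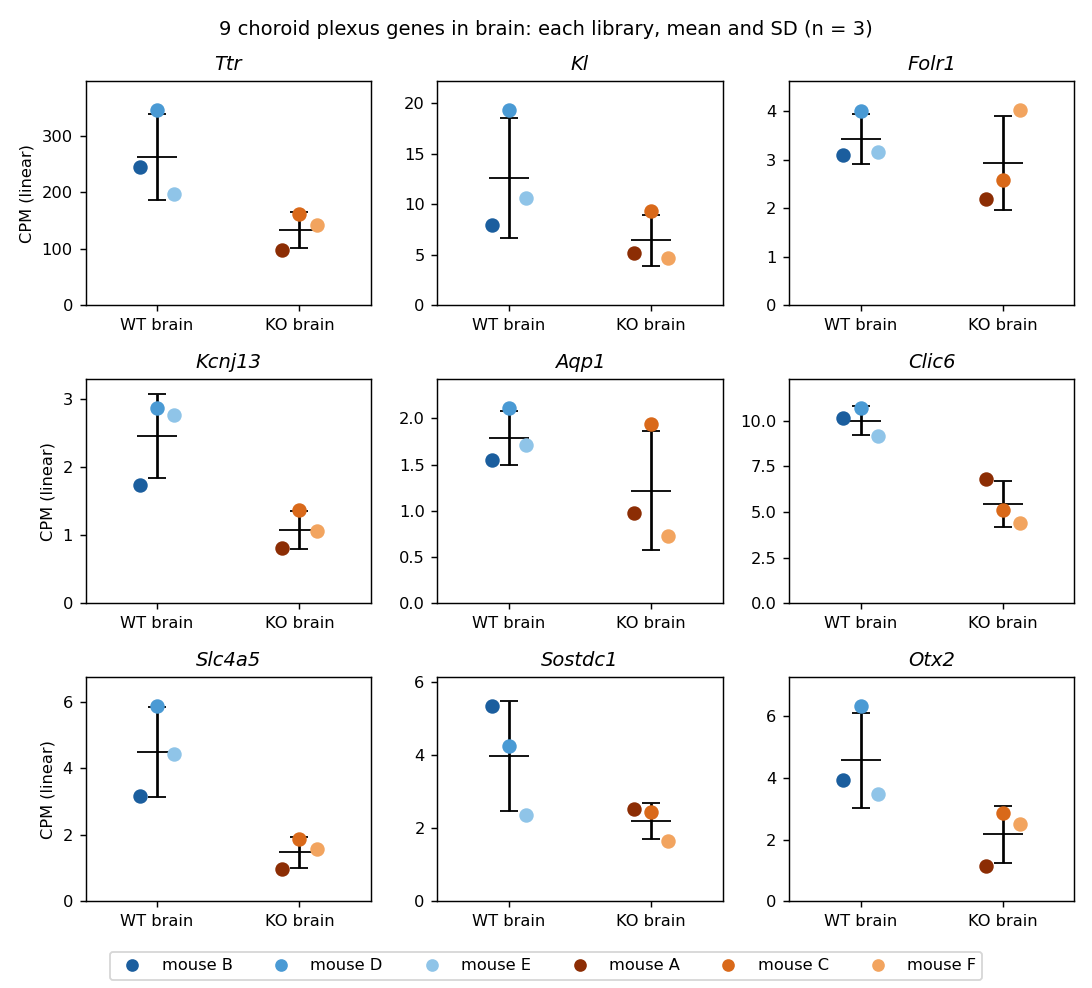
CPM (linear axes from 0) of the 9 choroid plexus genes in the 3 WT and 3 KO brain libraries, with colours for mice and black bars for the mean and SD. KO points lie below all WT points for Ttr, Kcnj13, Clic6, Slc4a5 and Otx2, and the groups overlap for Kl, Folr1, Aqp1 and Sostdc1.

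The transporters and channels spanned the widest range of folds. Slc4a5 encodes NBCe2, an electrogenic sodium bicarbonate cotransporter of the side of the cell that faces the ventricle. It was 3.16, 5.87 and 4.42 CPM in WT brain and 0.975, 1.87 and 1.58 CPM in KO brain. The groups did not overlap, and its log2 fold change of -1.59 (SE 0.35) was the lowest of the 9. Kcnj13 encodes Kir7.1, an inward rectifier potassium channel of the same side of the cell. Kcnj13 was 1.74, 2.86 and 2.76 CPM in WT brain and 0.813, 1.37 and 1.05 CPM in KO brain, without overlap, at a log2 fold change of -1.18 (SE 0.37). These levels rested on 27, 57 and 55 counts in WT and 10, 19 and 16 counts in KO brain. The counting interval of the lowest, 10 counts, was 4.80 to 18.4 (exact Poisson, 95%, counting error only).

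Because the 9 genes were low together in KO brain, their promoters were read for short words. RefSeq windows (GRCm38.p6) were at hand for 5 of the 9, in 8 windows of which Otx2 holds 4. The 250 bases upstream of a RefSeq start site are shown for Slc4a5 and Kcnj13, the members with the lowest folds, and for the Otx2 window that holds a recognition word of OTX factors. Capitals mark the OTX word TAATCC, the TATA word TATAAA or the GC box GGGCGG, each on either strand, and the last base shown is the base before the start. The Kcnj13 window ends at the annotated start of the gene, whereas the Slc4a5 and Otx2 windows belong to starts inside the annotated genes.
Slc4a5, chr6:83237125-83237374, plus strand: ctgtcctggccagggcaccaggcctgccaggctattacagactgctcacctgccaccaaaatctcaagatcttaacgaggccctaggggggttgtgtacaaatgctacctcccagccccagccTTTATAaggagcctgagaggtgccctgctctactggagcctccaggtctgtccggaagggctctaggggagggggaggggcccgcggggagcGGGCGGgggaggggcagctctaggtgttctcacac
Kcnj13, chr1:87394730-87394979, minus strand: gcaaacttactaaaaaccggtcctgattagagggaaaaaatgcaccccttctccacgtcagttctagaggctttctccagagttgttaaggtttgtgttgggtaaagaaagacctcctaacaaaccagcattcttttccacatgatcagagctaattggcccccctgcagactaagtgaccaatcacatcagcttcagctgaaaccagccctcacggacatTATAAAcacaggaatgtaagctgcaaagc
Otx2, chr14:48665110-48665359, minus strand: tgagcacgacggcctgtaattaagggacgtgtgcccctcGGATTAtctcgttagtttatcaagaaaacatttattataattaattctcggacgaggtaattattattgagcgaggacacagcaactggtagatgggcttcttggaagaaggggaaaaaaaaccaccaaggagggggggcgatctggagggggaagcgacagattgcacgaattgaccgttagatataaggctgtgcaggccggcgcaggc

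No word was in all of these windows. The OTX word was in 1 of the 8 member windows (the Otx2 window above, starting at position -211) and in 6.25% of all 32851 windows of the same length. The TATA word was in 3 of the 8, those of Kcnj13 (position -29), Slc4a5 (-127) and another Otx2 window (-192), and in 12.4% of all windows. The GC box was in 3 of the 8, those of Kl, Aqp1 and Slc4a5, and in 32.7% of all windows. The Aqp1 window ends at 55336298, before the annotated gene start at 55336432. The bases after it were found in no annotated Aqp1 transcript. The GC content of the 8 windows ran from 42.0 to 66.8%, on both sides of the median of 52.4% over all windows. A match of letters is a description and not a binding site.

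Slc4a5 lies at chromosome 6, 83219828 to 83304945, on the plus strand. Kcnj13 (chromosome 1, 87386363 to 87394729, minus strand) lies wholly within Gigyf2, which runs on the opposite strand, and the authors counted reads by strand. Clic6 (chromosome 16, 92485736 to 92541243, plus strand) belongs to the chloride intracellular channel family. It was the steadiest member within WT brain, at 10.2, 10.7 and 9.14 CPM, and was 6.83, 5.11 and 4.42 CPM in KO brain. The groups were well apart, and the log2 fold change was -0.88 (SE 0.22). An annotated transcript, 2410124H12Rik, overlaps Clic6 over 11631 bases on the same strand, so reads there cannot be given to Clic6 with certainty.

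Folr1 and Aqp1 had the smallest folds. Folr1 (chromosome 7, 101858331 to 101870788, minus strand) encodes the folate receptor alpha, which carries folate across the epithelium. Folr1 was 3.09, 4.01 and 3.17 CPM in WT brain and 2.19, 2.59 and 4.02 CPM in KO brain. The KO library of mouse F was the highest of all 6, and the log2 fold change was -0.22 (SE 0.30). It ran from -0.52 without mouse F to -0.05 without mouse A, with -0.13 without mouse C and -0.09 without mouse D. Aqp1 (chromosome 6, 55336432 to 55348555, plus strand) encodes the water channel aquaporin-1. Aqp1 was 1.55, 2.11 and 1.71 CPM in WT brain and 0.975, 1.94 and 0.725 CPM in KO brain. The library of KO mouse C lay within the WT range and the other two KO libraries lay below it. The log2 fold change of Aqp1 was -0.56 (SE 0.43) with all mice, -1.08 without mouse C and -0.29 without mouse F.

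A secreted antagonist and a transcription factor completed the set. Sostdc1 (chromosome 12, 36314139 to 36318452, plus strand) encodes a secreted antagonist of BMP and Wnt signalling. It was 5.35, 4.26 and 2.36 CPM in WT brain and 2.52, 2.45 and 1.65 CPM in KO brain, so WT mouse E lay among the KO mice. The log2 fold change was -0.85 (SE 0.36). Otx2 (chromosome 14, 48657677 to 48673819, minus strand) encodes a homeodomain factor needed to form and maintain the choroid plexus. Otx2 was 3.93, 6.32 and 3.47 CPM in WT brain and 1.14, 2.88 and 2.50 CPM in KO brain. The groups did not overlap, KO mouse A was lowest, and the log2 fold change was -1.06 (SE 0.38). Other annotated transcripts overlap the Otx2 locus, Otx2os1 on the opposite strand and Gm49154 over 1726 bases on the same strand.

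Per length of exon, Ttr stood far above the rest in WT brain, at 221 ± 63.7 CPM per kb (SD, n = 3). The other 8 followed between 2.56 ± 0.201 (Clic6) and 0.680 ± 0.110 CPM per kb (Aqp1). In between, in falling order, came Sostdc1 at 2.24 ± 0.849, Kcnj13 at 1.93 ± 0.489, Folr1 at 1.49 ± 0.223, Kl at 1.35 ± 0.638, Otx2 at 1.08 ± 0.363 and Slc4a5 at 0.772 ± 0.234 CPM per kb. Each neighbouring pair below Ttr differed by less than the larger of its SDs. In KO brain Ttr was again first at 112 ± 27.4 CPM per kb, while Slc4a5, at 0.254 ± 0.0787 CPM per kb, was last.

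Counted together, the 9 genes had KO below WT in every library for 5 members (Ttr, Kcnj13, Clic6, Slc4a5 and Otx2), where 7.94% of all genes tested did so. By edgeR's quasi-likelihood test 0 of the 9 passed an adjusted p under 0.1, as 0.064% of all genes tested did in either direction. At an unadjusted p under 0.05 there were 7 lower members, against 5.01% of all genes. With DESeq2 there were 3 lower members at an adjusted p under 0.1 (Ttr, Clic6 and Slc4a5), against 0.809% of the genes to which it gave an adjusted p. Since the members were chosen by their values in these libraries, nothing is read from these counts. The median log2 fold change of the 9 ran from -1.13 to -0.75 when each mouse was left out in turn.

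The 9 genes were also compared library by library. For each gene the mean log2 CPM of the 6 brain libraries was subtracted, and the 9 deviations of a library were averaged. The mean deviation was 0.29, 0.79 and 0.28 in WT mice B, D and E, and -0.70, -0.14 and -0.51 in KO mice A, C and F. The mean profile held 71.2% of the variance of the 54 deviations, which includes the difference between genotypes on which the members were chosen, and 41.9% once each genotype was centred on its own mean. WT mouse D was the highest library for 7 of the 9 genes, KO mouse A the lowest for 5 and KO mouse F the lowest for the other 4. KO mouse C, the highest KO library of the profile, was closest to the WT mice. These figures describe 6 libraries that share the choice of members, and no test was made of them.

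**Figure D2:**
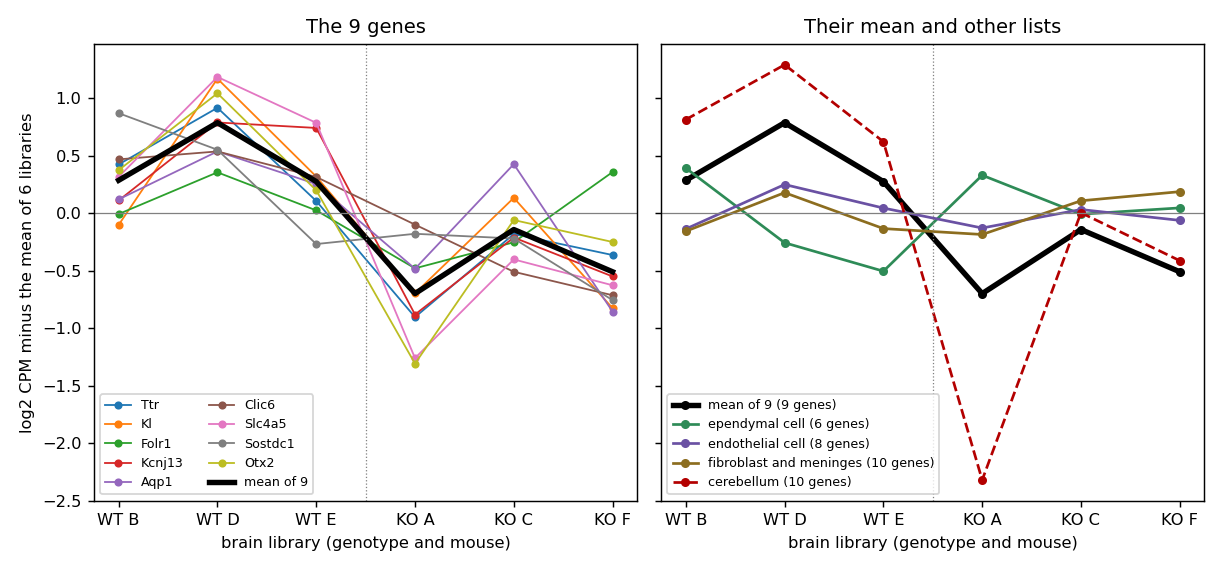
Log2 CPM minus the mean of the 6 brain libraries, by library (lines join the values of a gene or list and mark no order). The left panel has the 9 genes and their mean in black (0.79 in WT mouse D, -0.70 in KO mouse A). The right panel sets that mean beside lists of other cell types and of cerebellum. The hepatocyte and blood lists, also highest in WT mouse D, are not drawn.

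Sostdc1, Folr1 and Slc4a5 lay farthest from the shared profile, at mean absolute differences of 0.37, 0.36 and 0.31. With the mean profile taken off, Folr1 was higher in KO than in WT brain by 0.65 and Slc4a5 was lower by 0.63 on the log2 scale, each without overlap of the groups. The other 7 overlapped. Folr1 had the smallest fold of the members and Slc4a5 the largest, so the signs of their differences follow from taking off the mean. Each gene also forms part of that mean, and the members were chosen by their values in these libraries. These differences and the ratios to Ttr below are therefore a description, and no test was made of them. Against Ttr in the same library, Slc4a5 gave 1.75 ± 0.482 counts per 100 Ttr counts in WT brain and 1.09 ± 0.0832 in KO brain (SD, n = 3). Folr1 gave 1.35 ± 0.235 and 2.23 ± 0.614 counts per 100 Ttr counts. For Otx2 the ratio was 1.74 ± 0.117 in WT and 1.58 ± 0.353 in KO brain, and for Kl it was 4.76 ± 1.32 and 4.84 ± 1.31, so the groups differed by less than the larger SD for both genes.

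Liver gave the comparison of genotypes that had no part in the choice of members. Ttr was 4157, 3587 and 2496 CPM in WT liver of mice B, D and E and 3284, 3764 and 2561 CPM in KO liver of mice A, C and F. The ranges overlapped almost fully, and the lowest library of each genotype was that of the mouse nearly without Y-linked counts. The log2 fold change was -0.09 (SE 0.22, edgeR quasi-likelihood adjusted p = 0.969), and a two-sided exact permutation test of CPM gave p = 0.80, where 3 against 3 cannot go below 0.10. Its sign changed without mouse B (0.07) or mouse F (0.05). Aqp1 was 59.6, 59.3 and 69.4 CPM in WT liver and 62.6, 75.8 and 77.5 CPM in KO liver. The KO mean was the higher, with overlap, by 0.20 on the log2 scale (SE 0.14, edgeR adjusted p = 0.831, exact permutation p = 0.20).

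With 0 of the 2 members tested in liver called, the background was 0% of 14075 genes by edgeR, and at an unadjusted p under 0.05 it was 0 members against 7.33% of genes. DESeq2 also called 0 members in liver, against 1.38% of the genes to which it gave an adjusted p. The other 7 members did not pass the filter on low counts there. Kcnj13, Sostdc1 and Otx2 had 0 counts in all 6 liver libraries, Kl and Folr1 at most 1 count per library, Slc4a5 at most 2 and Clic6 at most 9 (WT mouse E). A difference between genotypes in these 7 was not detectable at this depth.

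Between tissues the set split into a pair of genes that liver held at higher levels and 7 that belonged to brain. In WT mice Ttr was higher in liver by 4.39 on the log2 scale (SE 0.33, edgeR adjusted p = 5.7e-07) and Aqp1 by 5.80 (SE 0.20, edgeR adjusted p = 2.3e-09). In terms of counts scaled over all libraries, liver had 19.9 times the Ttr and 52.9 times the Aqp1 of brain. In KO mice the log2 differences were 5.29 (SE 0.28, edgeR adjusted p = 7.2e-08) for Ttr and 6.58 (SE 0.31, edgeR adjusted p = 3.8e-08) for Aqp1, or 37.8 and 95.9 times. The WT and KO tissue contrasts use separate libraries, and the difference between them was not tested.

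Among all genes tested, 35.4% were called higher in liver in WT mice and 36.2% in KO mice. The other 7 members entered these contrasts through their brain counts alone, so their calls there were bound to fall on the brain side, and their levels are given as a description. Few counts stood on the liver side, so the size of the difference is given as a ratio of summed counts with an exact 95% interval or, where liver had none, as a bound at the floor of 3 counts over the group. In WT mice Clic6 was 28.8 times as high in brain as in liver (16.3 to 56.0) and Slc4a5 31.7 times (13.4 to 98.5). Of the 12 WT liver counts of Clic6, 9 came from mouse E, and without that mouse the ratio was 80.2 (27.2 to 390.4). The single liver counts of Kl and Folr1 gave ratios of 450 (80.4 to 17782) and 119 (21.2 to 4735). Kcnj13 was at least 28.9-fold higher in brain, Sostdc1 at least 44.8-fold higher and Otx2 at least 53.3-fold higher. In KO mice the bounds were at least 12.1-fold higher, at least 24.3-fold higher and at least 24.8-fold higher in the same order. These intervals and bounds cover counting error only.

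**Figure D3:**
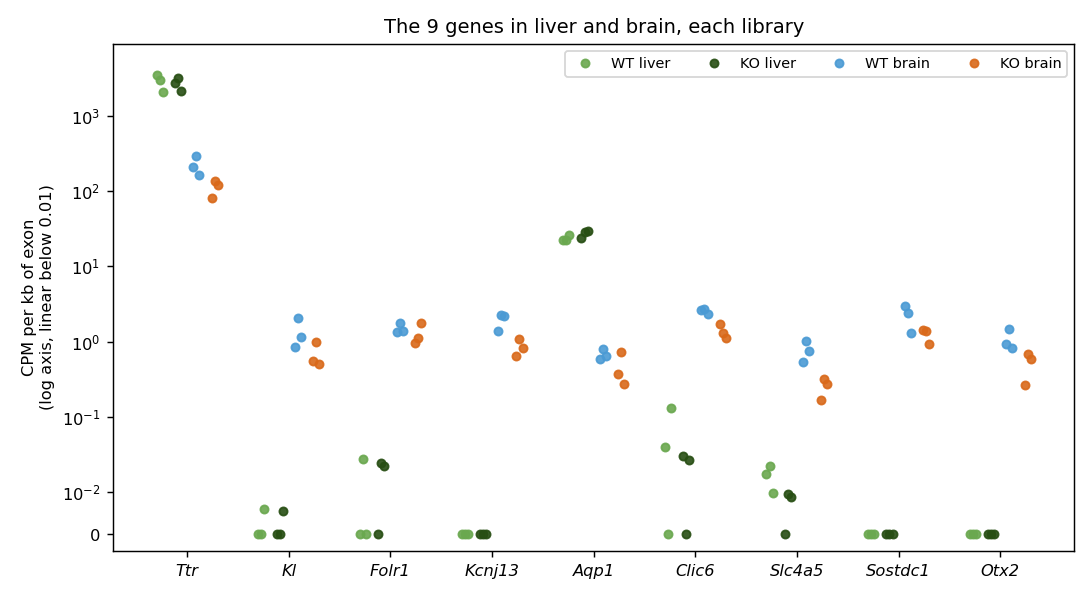
CPM per kb of exon of the 9 genes in each of the 12 libraries, on a log axis that is linear below 0.01, with colours for the 4 groups. Ttr and Aqp1 are higher in liver, and the other 7 sit at or near 0 in liver and between 0.168 and 3.003 CPM per kb in brain.

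In brain libraries Ttr stood at a higher share of its liver level than the listed hepatocyte genes did. Which cells gave the Ttr reads of brain was not tested. Brain Ttr was 1.84 to 6.88% of the mean liver level over the 6 libraries, scaled over all 12. Alb, which encodes albumin, was 0.011 to 0.029% of its liver mean and Apoa1, the main protein of high-density lipoprotein, 0.011 to 0.040%. Of the list of 8 hepatocyte genes, none exceeded 0.044% in any brain library. Alb, Apoa1 and Apoa2 were the 3 highest of the list in brain. Their log2 fold changes in KO against WT brain were -0.42 (SE 0.33), -1.10 (SE 0.38) and -0.03 (SE 0.47). Of the 5 listed genes tested there, 4 had estimates below 0 (50.2% of all genes did), at a median of -0.42. Lower at an unadjusted p under 0.05 was 1, Apoa1 (5.01% of all genes). The mean deviation of the 5 was 0.020, 0.89 and -0.46 in WT mice B, D and E. In KO mice A, C and F it was 0.075, -0.29 and -0.24.

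Other genes of the choroid plexus epithelium were then counted, from lists that hold none of the 9. Of 39 listed genes 37 passed the filter in brain. By edgeR 0 were called, where 0% of all genes tested were called lower, and 11 were lower (5.01% of all genes) and 0 higher at an unadjusted p under 0.05. The estimate was below 0 for 30 and above 0 for 7, where 50.2% of all genes tested were below 0. The groups stood apart with KO lower for 13 (7.94% of all genes tested), and the median log2 fold change was -0.40 against -0.0016 over all genes. DESeq2 called 5 of them at an adjusted p under 0.1, all lower, against 0.809% of all genes. They were Enpp2, F5, Mfrp, Tmem72 and Msx1, of which F5, Mfrp and Tmem72 are named after their values were seen. Mfrp had a log2 fold change of -2.29 (SE 0.52) and Tmem72 of -1.71 (SE 0.30).

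By role, the median log2 fold change ran from -0.68 for the junction and keratin genes to -0.27 for the regulators. Bulk RNA does not show which cells gave the reads. Genes lower in KO may therefore hold reads of other brain cells, as genes higher in KO may. Of 13 transport genes, 10 had estimates below 0, where 50.2% of all genes tested did. Lower at an unadjusted p under 0.05 were 3 (5.01% of all genes), and the median was -0.31. Slc12a2 encodes NKCC1, the sodium, potassium and chloride cotransporter of this epithelium, and was 152 CPM in WT and 122 CPM in KO brain (log2 fold change -0.31, SE 0.15). Slc4a2, the anion exchanger of the blood-facing side, was 40.2 and 25.3 CPM (-0.67, SE 0.22), and Trpm3, a cation channel, was 214 and 142 CPM (-0.59, SE 0.22). Slc4a10, a bicarbonate transporter that neurons also express, was 244 and 260 CPM (0.09, SE 0.16). Slc22a17, the lipocalin-2 receptor, was 141 and 116 CPM (-0.28, SE 0.21).

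Of 12 genes for secreted proteins and receptors, 9 had estimates below 0, where 50.2% of all genes tested did. Lower at an unadjusted p under 0.05 were 4 (5.01% of all genes), and the median was -0.32. Enpp2 encodes autotaxin, the enzyme that makes lysophosphatidic acid, and was 353 CPM in WT and 231 CPM in KO brain (log2 fold change -0.61, SE 0.16). Igfbp2, an IGF-binding protein, was 31.0 and 29.3 CPM (-0.08, SE 0.19), and Htr2c, the serotonin 2C receptor that neurons also express, was 28.8 and 34.5 CPM (0.26, SE 0.16). All 8 junction and keratin genes tested, of 10 listed, had estimates below 0 (50.2% of all genes), at a median of -0.68. Sulf1, a heparan sulfatase, had the highest level among those 8 and a log2 fold change of -0.21 (SE 0.13). Of 4 regulators 3 had estimates below 0 (50.2% of all genes), 1 of them at -0.02 (SE 0.37). Msx1, a homeodomain factor, was 6.18 CPM in WT and 2.95 CPM in KO brain (-1.07, SE 0.28).

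**Figure D4:**
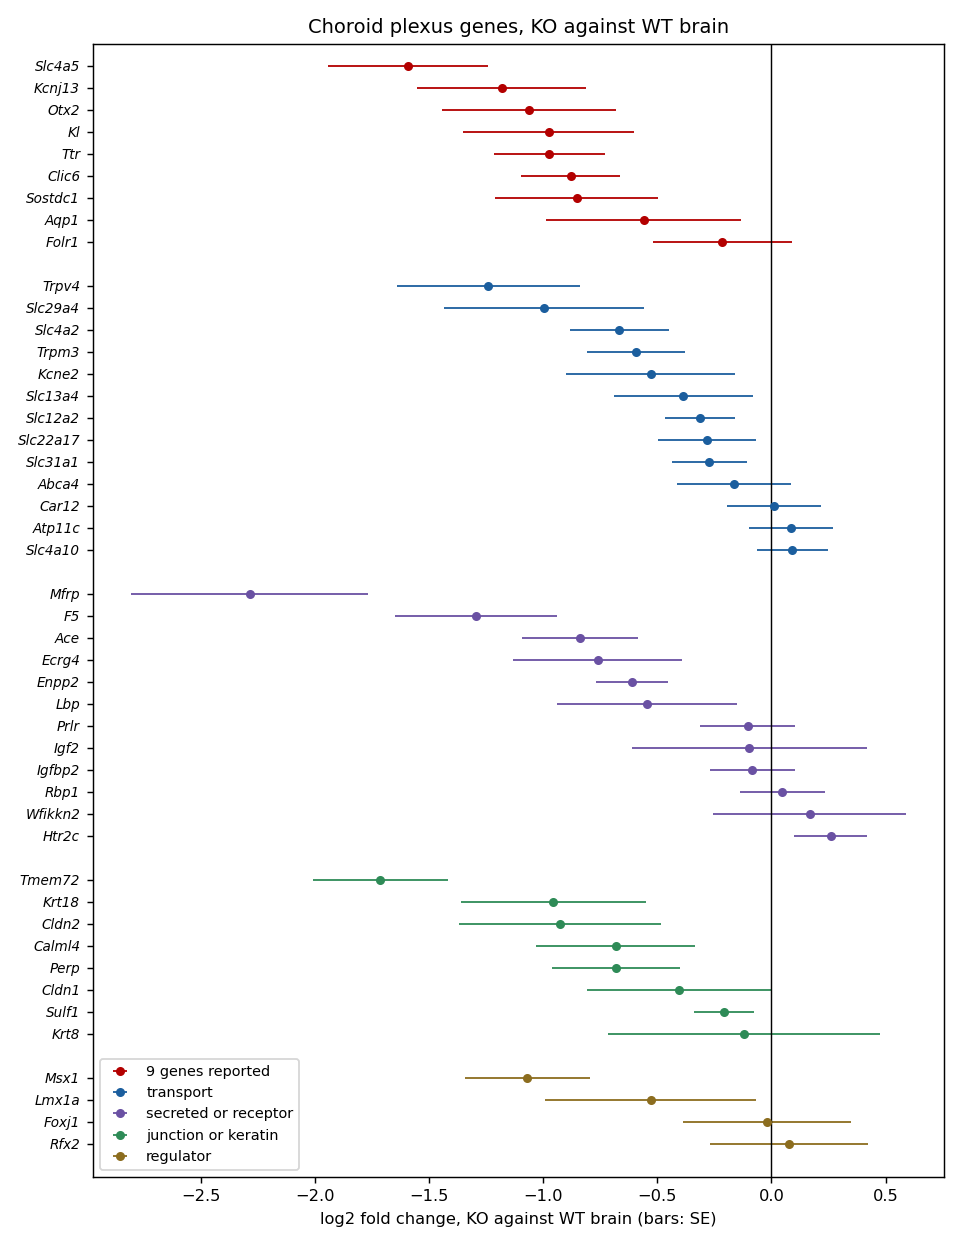
Log2 fold change of KO against WT brain with its SE for the 9 choroid plexus genes (selected on this contrast) and for 37 other genes of the epithelium by role. Points left of 0 are lower in KO, as are all 9 and 30 of the 37, where 50.2% of all genes tested were.

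Lists for other cells and brain regions were set beside these genes. Ependymal cells, which line the ventricles next to the choroid plexus, had 10 listed genes, of which 6 were tested with a median log2 fold change of 0.23. Their summed level was 10.9 to 21.1 CPM in WT and 15.0 to 21.8 CPM in KO brain, with Rarres2 at 0.20 (SE 0.26), Ccdc153 at 0.23 (SE 0.44) and Ak7 at 0.24 (SE 0.40). The 10 fibroblast and meninges genes, led by Ptgds, Aebp1 and Col1a2, had a median of 0.04 and summed to 399.7 to 636 CPM in WT and 431 to 503 CPM in KO brain. The 8 endothelial genes, led by Flt1, Slco1a4 and Cldn5, had a median of -0.15 and summed to 88.0 to 119 CPM in WT and 83.0 to 95.3 CPM in KO brain. The 5 blood genes, led by Hbb-bs, Hbb-bt and Hba-a1, had a median of -0.24 and sums of 34.9 to 62.7 and 32.6 to 44.2 CPM. No gene of these 4 lists was called by edgeR or DESeq2, and at an unadjusted p under 0.05 there were 2, Enkur (named after its values were seen) and Slco1a4, both higher, where 5.96% of all genes were higher. Hemoglobin genes are near-identical copies, so reads may be split among them.

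Retinal pigment epithelium shares Ttr, Kcnj13 and Otx2 with the choroid plexus. Of its 8 listed genes 3 were tested, Rlbp1, Rpe65 and Rdh5, with log2 fold changes of 0.12 (SE 0.22), 0.99 (SE 0.35) and -0.41 (SE 0.32). Rpe65 was detected at 17 to 49 counts in every brain library and was the single gene of the list at an unadjusted p under 0.05, higher in KO (5.96% of all genes were), while Rgr, named after its values were seen, had 0 counts in all 6. By edgeR and by DESeq2 0 of the 8 were called. The summed level was 11.3 to 15.0 CPM in WT and 12.9 to 18.2 CPM in KO brain.

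Lists for cerebellum and olfactory bulb stood apart by genotype in the same brain libraries. All 10 cerebellum genes had KO below WT in every library (7.94% of all genes tested), with a median log2 fold change of -1.59. By edgeR 0 of them were called, 9 were lower at an unadjusted p under 0.05 (5.01% of all genes), and 3 were called lower by DESeq2 (0.809%). Their summed level was 1037 to 1566 CPM in WT and 218 to 661 CPM in KO brain, with Cbln3 at -1.81 (SE 0.78), Car8 at -1.70 (SE 0.42) and Calb1 at -0.73 (SE 0.17). Their mean deviation was 0.82, 1.29 and 0.62 in WT mice B, D and E and -2.32, 0.0044 and -0.41 in KO mice A, C and F, and so had WT D at the top and KO A at the bottom, as the 9 choroid plexus genes did. Of the 10 olfactory bulb genes 7 were called higher by edgeR, where 0.064% of all genes were called, at a list median of 3.53, with Gng4 at 1.31 (SE 0.15), Cdhr1 at 2.72 (SE 0.32) and Omp at 3.70 (SE 0.32). Their summed level was 22.7 to 31.7 CPM in WT and 87.4 to 117 CPM in KO brain. Which parts of the brain each library holds was not labelled, and the part of these lists in the levels of the choroid plexus genes was not tested. The median log2 fold change of the 9 was -0.85 without mouse A, whose cerebellum genes were lowest. It was -0.75 without mouse D, whose cerebellum genes were highest, and -1.01, -1.13, -1.08 and -0.79 without mice B, C, E and F. Mice A and D were also the lowest and the highest for the 9 genes themselves.

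Genes outside the set were ranked by how closely their centred log2 CPM followed the mean profile of the 9 over the 6 brain libraries, among 11506 genes with a mean of at least 5 CPM. Among the 10 closest were Ust, Tob2, Tmem108, Gng13, Stk10, Aldh1l2, Kcnj12, Prox1 and Mtss1, with mean absolute differences of 0.058 to 0.10. For comparison, the members themselves lay 0.14 (Ttr) to 0.37 (Sostdc1) from the profile to which they contributed. None of these 9 was on a list used here. The 19 other choroid plexus genes that entered the ranking were spread from rank 57 (Slc4a2) to rank 9603 (Htr2c), with a median rank of 2530. Genes of other lists lay among them, such as Flt1 of endothelial cells at rank 315 and Calb1 of cerebellum at rank 573.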

How the data were processed

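Per the labels and the study's methods, the authors sonicated organs in Trizol, made stranded total RNA libraries (SMARTer Stranded Total RNA-Seq Kit v2, 100 bp single-end), trimmed reads with Trimmomatic, aligned them to mm10 with STAR 2.7.3a and counted them by strand over exons with featureCounts. The deposited values are raw counts per gene with exon lengths. Samples were grouped by labelled genotype and tissue. The 9 members, the gene lists and the tests were chosen with earlier results of these data known, and the TATA word and GC box were added after the data were seen.

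Counts were fitted with edgeR 4.0.16 (filterByExpr, TMM, robust quasi-likelihood test) within each contrast, p-values adjusted over every gene tested (Benjamini-Hochberg) and calls at an adjusted p under 0.1. DESeq2 1.42.0, no filter, other normalisations, a Y-linked covariate, mitochondrial rRNA left out and leaving out each mouse served as alternatives. log2 CPM used a prior count of 2. Per-gene permutation tests were exact. The labels tie no mice to a litter, so p-values measure the spread between these mice. Liver and brain are paired by mouse, per the labels. Deviations from group means of the same mouse over 12574 genes correlated at -0.04 to 0.14 between tissues.

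Named genes, beside the 9 and Mettl5, were the 8 other choroid plexus genes with the highest mean CPM in brain, the highest of each role absent from those 8 (Sulf1 and Msx1), the 3 highest of each other list and the 10 closest patterns, of which 1 is not reported here. Others are named as chosen after their values were seen. Ecrg4 was matched by its RefSeq synonym.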

Additional observations from a re-analysis of the deposited data

Results flagged for a closer look

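F5 encodes coagulation factor V and is also made by hepatocytes. Among the choroid plexus genes and the 39 others listed, it was the single gene tested in both tissues whose groups did not overlap in either, with opposite signs. Groups did not overlap, in either direction, for 16.3% of all genes tested in brain and 12.9% in liver. With such shares a single gene of this kind is given as a description only. Estimates of opposite sign, with groups that overlapped in 1 or both tissues, were also found for others, Aqp1 and Enpp2 among them. F5 was lower in every KO than in every WT brain library (log2 fold change -1.29, SE 0.35) and higher in every KO than in every WT liver library (0.24, SE 0.15), with neither called by edgeR. The difference between the tissues was not tested.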

How the results depend on the processing

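In brain, the number of members called at an adjusted p under 0.1 was 0 by edgeR, 3 with DESeq2 and 5 with no filter on low counts. The number of other choroid plexus genes called was 0, 5 and 9 under the same settings, while all genes called numbered 11, 286 and 1000. Left out in turn, single mice gave 0 called members and 0 called other choroid plexus genes, and 2 to 23 called genes in all. The cause was not tested. The median log2 fold change of the 9 in brain stayed between -1.13 and -0.75, and all 9 estimates stayed below 0 under every alternative run. In liver 0 members were called under every alternative. The Ttr estimate in liver, -0.09, was 0.071 without mouse B and 0.047 without mouse F (range -0.27 to 0.07 over mice left out). Liver calls over all genes were 0, against 187 with DESeq2, 443 with no filter, 82 with the Y-linked covariate and 87 without mouse D. With mouse as a replicate block in the paired tissue contrasts, 9 members were again called in WT and 9 in KO mice, 7 of which passed the filter through brain alone, and the block changed no call among the members. The count of 5 members with KO below WT in every library was also 5 with TMM over all 12 libraries, an alternative chosen after seeing the data, as were the Clic6 ratio without mouse E and the variance share within genotypes. Depth limits the liver values of 7 members, which rest on 0 to 9 counts per library.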
